A study of Homo sapiens with 12 samples.

Results

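The JmjC histone lysine demethylases described here are 10 genes, KDM2A, KDM2B, KDM3A, KDM3B, KDM4A, KDM4B, KDM4C, KDM5A, KDM5B and KDM6B, chosen by symbol and found by their Ensembl identifiers. They are 10 of the 57820 gene identifiers counted in the study, and all 10 passed the filter on low counts that left 16999 genes for testing. The cells were AsPC-1, an established human pancreatic adenocarcinoma line. Every culture was transfected with siRNA, either a scrambled control (siControl) or one against ARNT (siARNT). A day later the cells were split and either kept in normoxia or moved to 1% O2 for 24 h, and all were harvested 48 h after transfection. This gave 4 groups of 3 libraries, A, B and C: normoxia with siControl, normoxia with siARNT, hypoxia with siControl and hypoxia with siARNT. All 4 groups carried an siRNA, so no untransfected cells entered a comparison, and the normoxia siControl group was the baseline. The libraries are of a single cell line, one oxygen level and one time in hypoxia, and the labels give neither the number of siRNA sequences used nor whether A, B and C were separate experiments. The p-values therefore measure the spread between these libraries, which may be technical.

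JmjC demethylases remove methyl groups from histone lysines in a reaction that consumes molecular oxygen and 2-oxoglutarate and needs iron in the active site, so lack of oxygen can limit their activity. Several of their genes are known targets of the hypoxia-inducible factors (HIFs), transcription factors made of an oxygen-regulated alpha subunit and ARNT, also called HIF-1beta. KDM3 enzymes act on lysine 9 of histone H3 (H3K9), KDM4 enzymes on H3K9 and H3K36, KDM5 enzymes on H3K4, KDM2 enzymes mainly on H3K36, and KDM6B on H3K27. The libraries measure transcripts, not enzyme activity or histone marks.

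The reads assigned to genes numbered 38.53 M to 84.34 M per library, where M stands for 1000000 reads. ARNT itself, the siRNA target, was at 60.7, 63.6 and 63.0 counts per 1000000 gene counts (CPM) in normoxia siControl and at 13.3, 12.8 and 14.0 CPM in normoxia siARNT. In hypoxia it was at 70.3, 64.9 and 72.2 CPM with siControl and at 16.0, 15.8 and 14.1 CPM with siARNT, a change of -2.17 on the log2 scale (edgeR quasi-likelihood test, adjusted p = 2.65e-09). All 10 epithelial and pancreatic carcinoma markers averaged at least 1 CPM in every group, with summed levels of 5874 to 10056 CPM per library. Of 7 fibroblast and stellate markers, 2 did so, LUM and ACTA2; the summed list was at 550 to 575 CPM in hypoxia siControl and at 341 to 467 CPM in the other groups, nearly all of it LUM, while COL1A1 was at most 0.208 CPM. None of the 6 immune and endothelial markers found reached 1 CPM on average, and CD3E was at 0 in every library. The part of the fibroblast list in the results below was not tested.

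In normoxia siControl the 10 genes spanned a wide range of abundance. Per kilobase of each gene's principal GENCODE 29 transcript, the mean level was 29.9 CPM per kb for KDM2A, 28.5 for KDM3B and 26.6 for KDM3A, followed by 10.0 for KDM4A, 9.24 for KDM5B, 7.65 for KDM5A, 5.34 for KDM4C and 3.53 for KDM2B. KDM6B, at 0.891 CPM per kb, and KDM4B, at 0.695, were the lowest. The ranges of the 3 libraries did not overlap between any neighbours in that order. In hypoxia siControl KDM3A was first at 74.7 ± 5.92 CPM per kb (SD, n = 3), ahead of KDM2A at 35.2 and KDM3B at 33.3, whose ranges overlapped. KDM3A made up 21.7 ± 0.474% (SD, n = 3) of the summed level of the 10 genes in normoxia siControl and 39.7 ± 1.88% in hypoxia siControl, against 19.7 ± 1.36% in normoxia siARNT and 27.8 ± 2.07% in hypoxia siARNT. The sum over the 10 genes was 122 ± 2.0 CPM per kb in normoxia and 188 ± 6.37 in hypoxia for siControl cells, against 115 ± 3.02 and 136 ± 4.49 for siARNT cells.

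**Figure D1:**
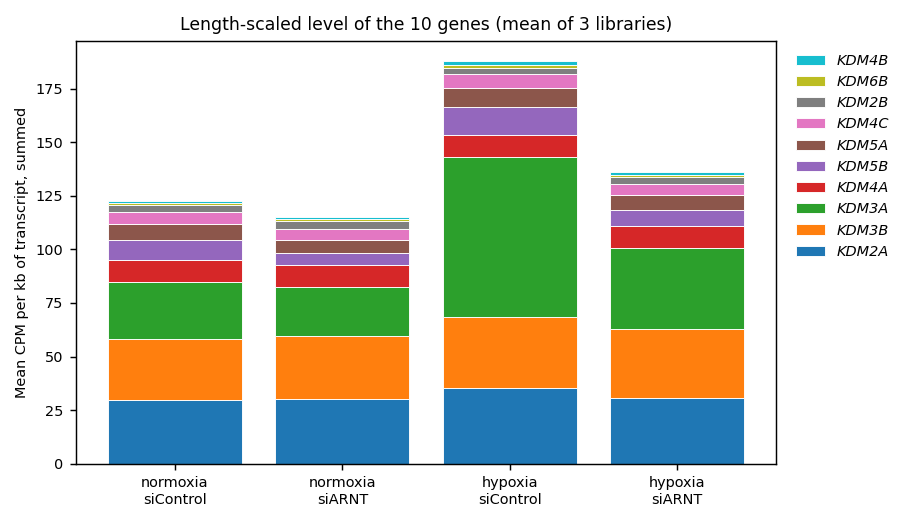
Mean level of the 10 genes in each group, in CPM per kb of principal transcript, stacked by gene (each segment is the mean of 3 libraries). The KDM3A segment grows from 26.6 CPM per kb in normoxia siControl to 74.7 in hypoxia siControl and is 37.9 in hypoxia siARNT, and the KDM2A and KDM3B segments stay the widest of the other genes in all 4 groups.

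Hypoxia against normoxia in siControl cells asks how the 10 genes responded to low oxygen with ARNT present. The genes were chosen with earlier results of these data known, so their counts beside the shares of all genes are a description. KDM3A, KDM4B, KDM5B, KDM4C, KDM2A and KDM3B rose and KDM2B fell, which is 7 of 10 genes, against 25.3% of all genes tested (10.4% up and 14.9% down). For 8 of the 10 genes no hypoxia library overlapped the normoxia range, which held for 46.8% of all genes. The median change of the 10 genes was 0.26 on the log2 scale and that of all genes 0.02. In bulk RNA a change in the share of cells that express a gene and a change in its RNA per cell cannot be told apart. In siARNT cells 2 of the 10 genes rose with hypoxia, KDM3A and KDM5B, where 4.09% of all genes changed (2.21% up and 1.89% down), and the medians were 0.15 for the 10 genes and -0.04 for all. Here 5 of the 10 did not overlap, against 22.2% of all genes. With ARNT depleted in hypoxia, 7 of the 10 genes were lower and 1, KDM2B, was higher, where 29.1% of all genes changed (14.4% up, 14.7% down), and 8 of the 10 did not overlap, against 40.3% of all. With ARNT depleted in normoxia 2 were lower, KDM5B and KDM5A, and none higher, where 20.2% of all genes changed (9.42% up and 10.8% down), and 6 of the 10 did not overlap, against 46.5% of all. The hypoxia siControl libraries enter both the hypoxia comparison in siControl cells and the siARNT comparison in hypoxia, so a rise in the first and a fall in the second are not independent. The difference between the 2 hypoxia responses, tested as an interaction, was significant for KDM3A alone, where 4.69% of all genes passed (2.49% with a larger and 2.19% with a smaller value in siARNT cells). These counts moved with the fit: leaving out single libraries gave 5 to 8 genes for hypoxia in siControl, 1 to 2 for hypoxia in siARNT, 1 to 3 for siARNT in normoxia and 4 to 8 for siARNT in hypoxia. The last was 4 without hypoxia siARNT A or B and 5 without hypoxia siControl A or B. Over all genes, 17193 to 17453 tested, the same fits gave 2873 to 5242, 129 to 707, 1571 to 4148 and 3537 to 5847 calls, in the same order.

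**Figure D2:**
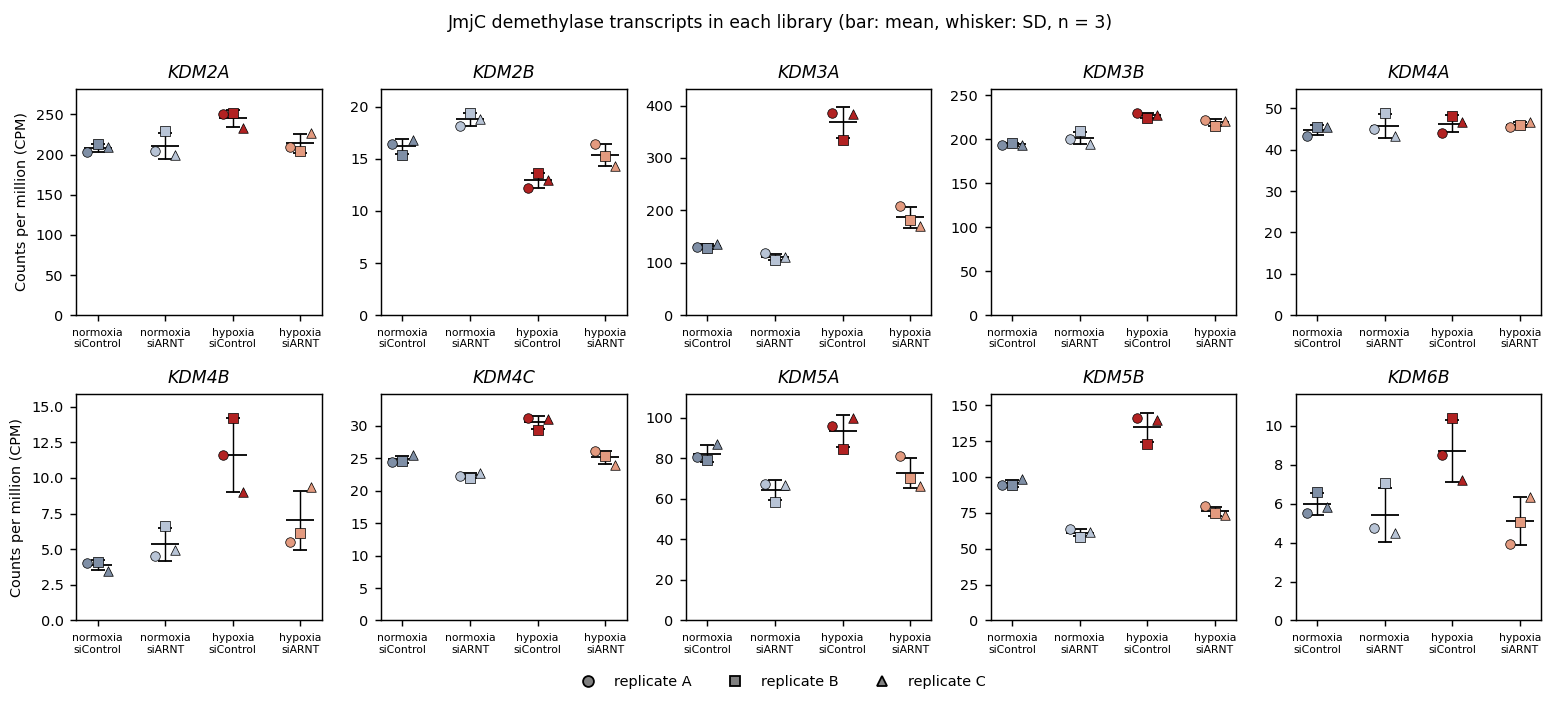
CPM of each gene in all 12 libraries (y axis from 0, one panel per gene, symbols for replicates A, B and C; the bar is the mean and the whisker the SD of 3 libraries). The 3 hypoxia siControl libraries lie above all other libraries for KDM3A, KDM5B and KDM4C and, by narrow margins, for KDM2A, KDM3B and KDM6B. They lie below all others for KDM2B. The KDM4A groups overlap.

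KDM3A, which removes mono- and dimethylation from H3K9 and is an established HIF target, had the clearest pattern. In siControl cells it was at 130, 128 and 136 CPM in normoxia and at 386, 334 and 384 CPM in hypoxia. In siARNT cells it was at 118, 106 and 111 CPM in normoxia and at 208, 182 and 170 CPM in hypoxia. The hypoxia siControl libraries stood apart from all others, and the hypoxia siARNT libraries lay between them and both normoxia groups without overlap. Hypoxia raised KDM3A 2.81-fold in siControl cells (log2 1.49, SE 0.083, edgeR adjusted p = 4.69e-07), which placed it 152nd from the top of 16999 genes. In siARNT cells the rise was 1.67-fold (log2 0.74, adjusted p = 0.00168). The response in siARNT cells was smaller by 0.75 on the log2 scale (difference -0.75, SE 0.116, adjusted p = 0.00436), so 49.8% of the log2 response was measured with ARNT depleted. The siARNT libraries still held ARNT transcripts, as given above. With only the 6 libraries compared, the rise in siARNT cells was 0.76 with an adjusted p of 0.0589. SiARNT lowered KDM3A in hypoxia (log2 -0.98, adjusted p = 4.92e-06), while the normoxia difference of -0.23 did not pass (adjusted p = 0.0639).

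To show the letters of the HIF core motif near these genes, the 250 bases before a RefSeq start (GRCh38.p14) are printed for 3 genes that rose with hypoxia by differing amounts (KDM3A, KDM4B and KDM5B), for KDM4C, whose window holds the most matches among the 10 genes, and for KDM4A, which did not pass in any comparison. Capitals mark ACGTG or GCGTG on the gene's strand and their reverse complements CACGT or CACGC, and overlapping matches run together, so that CACGTG counts as 2 matches of ACGTG, 1 on each strand.
KDM3A, chr2:86441121-86441370, plus strand: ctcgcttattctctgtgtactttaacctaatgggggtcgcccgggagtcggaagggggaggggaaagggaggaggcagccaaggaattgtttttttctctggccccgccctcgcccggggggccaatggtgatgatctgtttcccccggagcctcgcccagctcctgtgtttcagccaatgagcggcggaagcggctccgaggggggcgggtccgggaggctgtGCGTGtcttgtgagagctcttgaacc
KDM4B, chr19:4968863-4969112, plus strand: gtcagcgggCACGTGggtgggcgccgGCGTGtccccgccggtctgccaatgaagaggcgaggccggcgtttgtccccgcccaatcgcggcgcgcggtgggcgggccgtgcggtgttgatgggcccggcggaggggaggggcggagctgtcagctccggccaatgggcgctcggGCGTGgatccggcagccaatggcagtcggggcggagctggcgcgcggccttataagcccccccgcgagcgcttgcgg
KDM5B, chr1:202808422-202808671, minus strand: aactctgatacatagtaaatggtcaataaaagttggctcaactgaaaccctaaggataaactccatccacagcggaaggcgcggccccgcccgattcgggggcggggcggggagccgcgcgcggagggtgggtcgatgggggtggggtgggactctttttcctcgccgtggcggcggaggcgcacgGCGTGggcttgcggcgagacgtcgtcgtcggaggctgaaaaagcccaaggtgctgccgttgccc
KDM4C, chr9:6757723-6757972, plus strand: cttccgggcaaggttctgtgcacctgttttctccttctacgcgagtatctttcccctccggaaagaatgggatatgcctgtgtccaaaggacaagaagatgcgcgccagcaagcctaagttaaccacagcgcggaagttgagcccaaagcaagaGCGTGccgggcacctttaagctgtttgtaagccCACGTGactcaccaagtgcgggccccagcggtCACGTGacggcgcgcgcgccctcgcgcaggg
KDM4A, chr1:43649899-43650148, plus strand: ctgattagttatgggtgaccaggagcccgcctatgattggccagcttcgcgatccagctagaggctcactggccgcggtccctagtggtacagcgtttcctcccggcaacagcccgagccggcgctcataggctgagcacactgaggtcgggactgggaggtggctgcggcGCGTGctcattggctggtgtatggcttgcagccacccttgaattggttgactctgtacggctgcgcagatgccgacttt
GENCODE 29 lets the KDM3A, KDM5B and KDM4C genes begin further upstream, so these windows lie inside those longer gene bodies, while the KDM4A and KDM4B windows lie before the gene.

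In the KDM3A window the single GCGTG begins 26 bases before the start. The KDM4B window holds a CACGTG near its upstream end and GCGTG 224 and 77 bases before the start, the KDM5B window a GCGTG 64 bases before it, and the KDM4C window 4 matches of ACGTG, which form 2 copies of CACGTG, and 1 of GCGTG. KDM4A has a GCGTG 79 bases before its start. Over the full 300-base windows, which add 50 bases after the start, 9 of the 10 genes and 13 of their 16 windows held either form, and KDM3B held neither. Of all 35116 such RefSeq windows, 48.4% held either form, 21.4% ACGTG and 36.5% GCGTG, so the motif is common, and it was present in genes that rose, in KDM4A and in KDM2B, which fell. A match is a run of letters, not a measured binding site, and no binding was measured here.

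KDM3B, the close relative of KDM3A, was slightly more abundant per kb than KDM3A in normoxia siControl and moved by a smaller fold. It was at 193, 196 and 194 CPM in normoxia siControl and 230, 224 and 228 CPM in hypoxia siControl, groups that did not overlap, a rise of 1.17-fold (adjusted p = 0.00405). In siARNT cells it was at 200, 209 and 195 CPM in normoxia and 222, 215 and 221 CPM in hypoxia, a difference that did not pass (log2 0.12, adjusted p = 0.154). Neither siARNT comparison passed for KDM3B, but with the offset for GC content described below the normoxia difference of 0.05 was 0.15 (adjusted p = 0.0178).

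Among KDM4A, KDM4B and KDM4C, whose enzymes act on H3K9 and H3K36, the least abundant, KDM4B, had the largest fold. KDM4D, listed below with the other JmjC genes, had a lower mean of 1.52 CPM in normoxia siControl. It fell with hypoxia in siControl cells (log2 -0.56, edgeR adjusted p = 0.0262). KDM4B was at 4.06, 4.11 and 3.49 CPM in normoxia siControl and at 11.6, 14.2 and 8.99 CPM in hypoxia siControl, a rise of 2.99-fold (log2 1.58, SE 0.228, adjusted p = 0.000405) and rank 127 of all genes. In siARNT cells it was at 4.49, 6.65 and 4.91 CPM in normoxia and at 5.54, 6.16 and 9.40 CPM in hypoxia, groups that overlapped, with a difference of 0.39 that did not pass (adjusted p = 0.346). SiARNT lowered it in hypoxia by the model (log2 -0.73, adjusted p = 0.028), although library C of hypoxia siARNT lay above library C of hypoxia siControl. That call was lost without hypoxia siControl A (adjusted p = 0.0704) or B (0.102) and without hypoxia siARNT A (0.0875) or B (0.105). The difference between the hypoxia responses was -1.19 (SE 0.317), beside -0.75 for KDM3A, but its adjusted p of 0.0567 missed the threshold. It passed without hypoxia siControl C (adjusted p = 0.0339), without hypoxia siARNT C (0.015) and by DESeq2 (0.00527).

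KDM4B and KDM6B are also the members with the highest GC content, at 60.8% and 60.7% of transcript bases. Libraries differed in how counts depended on GC content, from a slope of -0.21 log2 units per 10 percentage points of GC in normoxia siControl A to 0.44 in normoxia siARNT B. In normoxia the slopes of libraries A, B and C were -0.214, -0.041 and -0.180 with siControl and 0.002, 0.443 and 0.003 with siARNT, without overlap. The siARNT comparison in normoxia and the interaction therefore also set unlike slopes against each other. In hypoxia the slopes of the 2 groups overlapped. In all 4 groups the library with the highest KDM4B level, and that with the highest KDM6B level, was the one with the highest GC slope of its group, as was that of KDM2A and KDM4A. KDM3A, KDM4C, KDM5A and KDM5B, at 43.2% to 45.0% GC, were highest in that library in 0 of 4 groups. KDM2B, at 55.1% GC, was so in 2 of 4 groups, although KDM2A and KDM4A have less GC, at 51.7% and 49.5%. KDM3B, at 47.4%, was so in 2 of 4 as well. When an offset for this dependence was fitted, the KDM4B rise in siControl cells was 1.37 (adjusted p = 4.84e-08), that in siARNT cells 0.57 (0.00133), and their difference -0.80 (0.00163). The KDM4B difference in normoxia, 0.46 without the offset, was -0.01 with it. The interaction of KDM3A was -0.88 with the offset (adjusted p = 9.14e-08).

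**Figure D3:**
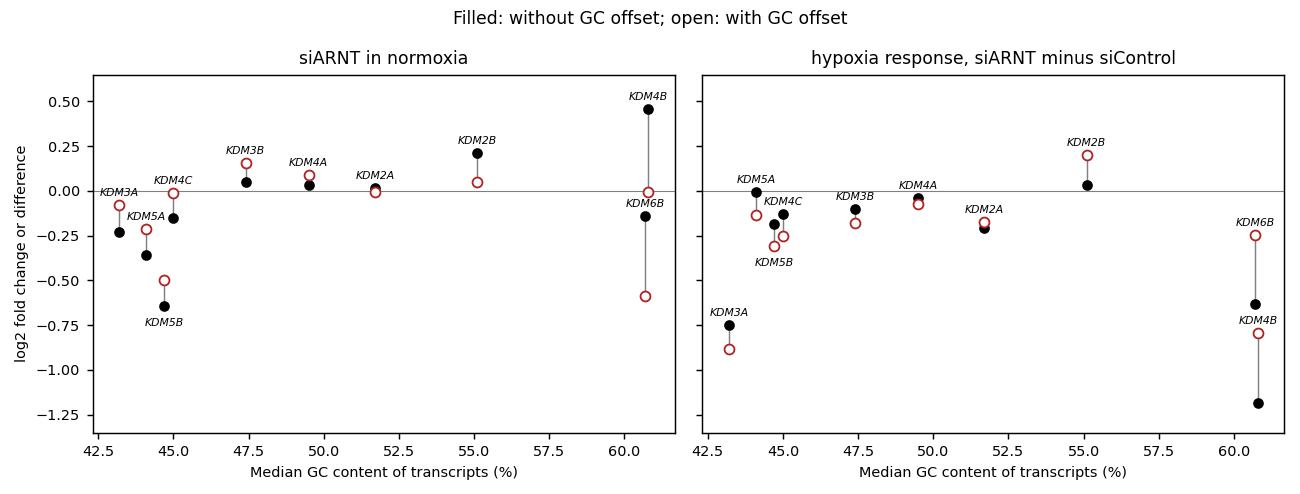
Log2 change with siARNT in normoxia (left) and the hypoxia response in siARNT minus that in siControl cells (right) against the median GC content of each gene's transcripts in percent, without (filled) and with (open) the GC offset. KDM4B and KDM6B, at 60.8% and 60.7% GC, move the most, and KDM3A stays below -0.7 in the right panel.

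KDM4C rose with hypoxia by 1.23-fold in siControl cells (adjusted p = 0.00354), from 24.4, 24.6 and 25.5 CPM to 31.2, 29.4 and 31.0 CPM, without overlap. In siARNT cells it went from 22.3, 22.0 and 22.8 CPM to 26.1, 25.3 and 24.0 CPM, also without overlap, but the difference of 0.17 did not pass (adjusted p = 0.135). In hypoxia siARNT lowered KDM4C (log2 -0.28, adjusted p = 0.00437), a call lost with no filter on low counts (0.0583). The 2 hypoxia responses of KDM4C differed by -0.13 (adjusted p = 0.41), and by -0.25 with the GC offset (0.0259). KDM4A stayed between 43.3 and 48.9 CPM in all 12 libraries, and no comparison passed for it, with log2 values from -0.04 to 0.05.

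**Figure D4:**
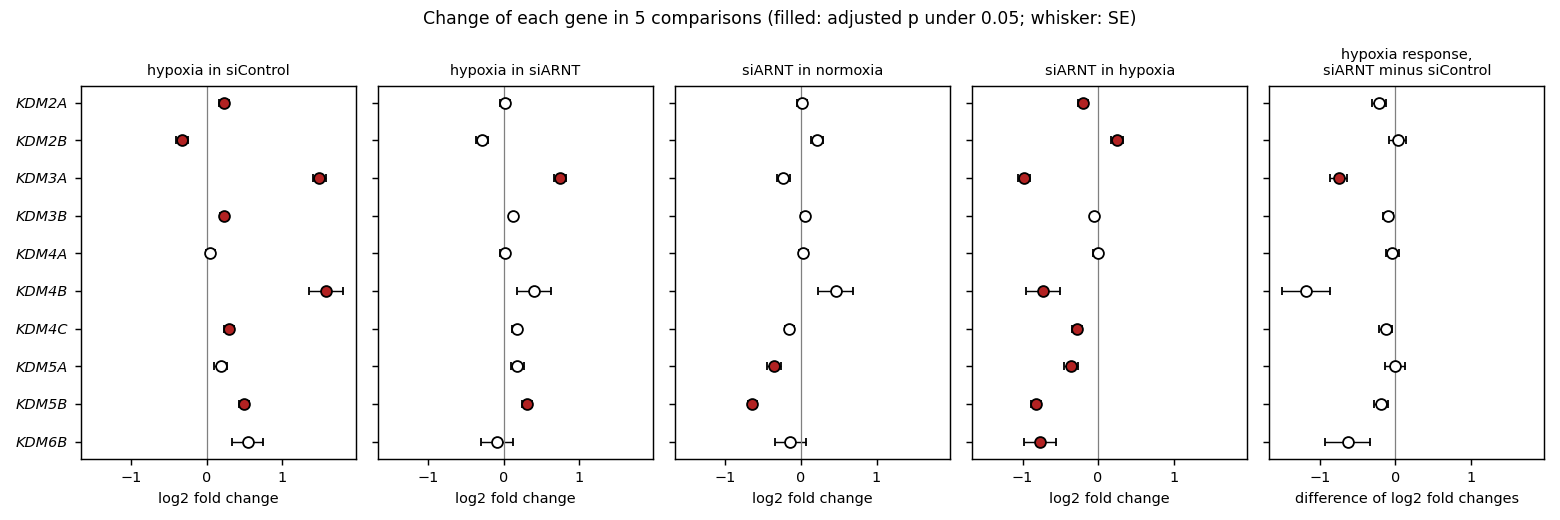
Log2 fold change with its SE for each gene in the 4 pairwise comparisons, and the difference of the 2 hypoxia responses in the last panel (filled points have an adjusted p under 0.05 in the edgeR test). KDM3A and KDM4B stand furthest to the right in the first panel, KDM5B is filled in the first 4 panels, and KDM3A alone is filled in the last.

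KDM5A and KDM5B, which remove methylation from H3K4, were the members lowered by siARNT at both oxygen levels. KDM5C, outside the 10 genes, passed in neither siARNT comparison (log2 0.21 in normoxia, edgeR adjusted p = 0.347, and -0.17 in hypoxia, 0.45). KDM5B, also known as JARID1B, was at 94.1, 94.2 and 98.3 CPM in normoxia siControl and at 63.6, 58.4 and 61.7 CPM in normoxia siARNT, a fall of 0.64 on the log2 scale (adjusted p = 6.35e-05). In hypoxia it was at 141, 123 and 140 CPM with siControl and 79.8, 74.9 and 73.2 CPM with siARNT, 1.77-fold lower with siARNT (adjusted p = 3.06e-06). With the GC offset the siARNT change was -0.499 in normoxia (edgeR adjusted p = 1.86e-07) and -0.807 in hypoxia (2.67e-10). No 2 of the 4 KDM5B groups overlapped, and even the hypoxia siARNT libraries lay below every normoxia siControl library. Hypoxia raised it 1.41-fold in siControl cells (adjusted p = 0.000216) and 1.24-fold in siARNT cells (adjusted p = 0.0268). The second of these calls was lost in 8 of the 12 fits that left out a library, with adjusted p-values up to 0.101, and with only the 6 libraries compared (0.16). The 2 responses differed by -0.18, which did not pass (adjusted p = 0.277), but with the GC offset the difference was -0.31 (0.0016).

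KDM5A changed with siARNT at both oxygen levels, and neither hypoxia comparison passed. It was at 80.4, 79.3 and 87.2 CPM in normoxia siControl and 67.5, 58.5 and 66.6 CPM in normoxia siARNT, and at 96.0, 84.7 and 99.8 CPM in hypoxia siControl and 81.1, 70.5 and 66.5 CPM in hypoxia siARNT. The change with siARNT was -0.36 in normoxia (adjusted p = 0.0182) and -0.36 in hypoxia (adjusted p = 0.0102), with no overlap of the groups in either. With the GC offset it was smaller in normoxia, at -0.21 (edgeR adjusted p = 0.00177), and -0.35 in hypoxia (9.74e-06). The normoxia call was lost without normoxia siControl C (adjusted p = 0.0772) or normoxia siARNT B (0.0539). The hypoxia difference in siControl cells, 0.18, did not pass (adjusted p = 0.164), but with the GC offset it was 0.23 (0.00052).

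KDM2A and KDM2B, CXXC-domain proteins that bind unmethylated CpG DNA, moved in opposite directions where both passed. KDM2B, the subunit that brings a variant Polycomb complex (PRC1.1) to CpG islands, was at 16.4, 15.4 and 16.8 CPM in normoxia siControl and fell to 12.2, 13.6 and 13.0 CPM in hypoxia siControl (log2 -0.32, adjusted p = 0.0105). It was at 18.1, 19.4 and 18.8 CPM in normoxia siARNT and at 16.4, 15.3 and 14.3 CPM in hypoxia siARNT, a difference of -0.29 that did not pass (adjusted p = 0.0639). The sizes in the 2 arms differed by 0.03 (SE 0.112, adjusted p = 0.879). With the GC offset they were -0.396 in siControl and -0.194 in siARNT cells, a difference of 0.202 that did not pass either (edgeR adjusted p = 0.395). In hypoxia KDM2B was higher with siARNT (log2 0.25, adjusted p = 0.036), without overlap. The hypoxia call in siControl cells was lost without normoxia siControl C (adjusted p = 0.0514), and the siARNT call in hypoxia in 9 of the 12 fits that left out a library. KDM2A was at 203, 213 and 210 CPM in normoxia siControl and 250, 252 and 233 CPM in hypoxia siControl, 1.17-fold higher (adjusted p = 0.0226). In siARNT cells it was at 205, 229 and 199 CPM in normoxia and 210, 205 and 227 CPM in hypoxia, overlapping groups with a difference of 0.02 (adjusted p = 0.871). It was lower with siARNT in hypoxia by 0.20 on the log2 scale (adjusted p = 0.0441). The KDM2A call for hypoxia was lost in 5 of the 12 fits that left out a library, and that for siARNT in hypoxia in 8 of 12.

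KDM6B, which removes methylation from H3K27, was scarce. It was at 5.52, 6.58 and 5.85 CPM in normoxia siControl and 8.49, 10.4 and 7.21 CPM in hypoxia siControl, groups that did not overlap, yet the difference of 0.54 (SE 0.209) did not pass (adjusted p = 0.081). In 8 of 21 other fits KDM6B did pass there. Among them were DESeq2 (adjusted p = 0.0375) and edgeR with only the 6 libraries compared (0.0169) or with no filter on low counts (0.0458). With siARNT it was at 4.77, 7.04 and 4.47 CPM in normoxia and 3.91, 5.08 and 6.35 CPM in hypoxia, and these groups overlapped. In hypoxia siARNT lowered it (log2 -0.77, adjusted p = 0.017), a call lost without hypoxia siControl B (adjusted p = 0.0628), hypoxia siARNT A (0.0535) or hypoxia siARNT B (0.055). With the GC offset the hypoxia change in siControl cells was 0.35 (adjusted p = 0.00144), and the siARNT change in normoxia, -0.14 without it, was -0.59 (2.75e-05).

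GENCODE 29 places a gene on the opposite strand across part of 6 of the 10 genes, among them CCDC77 at KDM5A, RNF34 at KDM2B and KDM4A-AS1 at KDM4A. The library kit kept strand, but the strand setting of the counting is not given in the sources used here, so reads of such a partner may be included. KDM3A, KDM3B, KDM4B and KDM6B have no such overlap.

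The study's splicing tables listed 32 events in 8 of the 10 genes, none of them in KDM4B or KDM6B, of which 18 were single skipped exons and 7 alternative 3' splice sites. Of these, 19 met the limits on reads in every library and on mean inclusion that a test required, and none passed in any of the 5 comparisons (limma). Of all 30653 events tested, 0.0326% passed for hypoxia in siControl and 0.0261% in siARNT cells, 0.0196% for siARNT in normoxia and 0.176% in hypoxia, and 0.0163% in the interaction. At an unadjusted p under 0.05 there were 1, 0, 4, 2 and 1 of the 19 events, in the same order. Of all 30653 events there were 2250, 1852, 2578, 2889 and 1605. The best-covered event of KDM5A, an 82-base exon, was included in 36.3 ± 4.57% (SD, n = 3) of junction reads in normoxia and 44.5 ± 2.92% in hypoxia for siControl cells. For siARNT cells it was included in 39.5 ± 5.83% and 30.9 ± 3.5%. The 2 hypoxia groups did not overlap, but the siARNT difference in hypoxia did not pass (limma adjusted p = 0.437). The best-covered event of KDM3A was a 3-base shift of a 3' splice site, whose inclusion form is listed at 0% of reads in normoxia siControl A and B and at 17.2% in C, and at 12.9% to 18.4% in the 9 other libraries. It did not pass with all libraries (adjusted p = 0.565 for hypoxia in siControl). Without normoxia siControl C, where only the libraries at 0% remained in that group, it passed in that comparison (5.83e-06), for siARNT in normoxia (8.4e-06) and in the interaction (0.000155). Whether the zeros in A and B reflect the transcripts or how the event was counted was not tested.

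Of the other JmjC genes, a list of 18, 17 were tested. In siControl cells 3 of the 17 fell with hypoxia and none passed as higher, where 14.9% of all genes fell and 10.4% rose: RIOX2, a nucleolar hydroxylase (log2 -0.70, edgeR adjusted p = 4.56e-05), HSPBAP1 (-0.62, 0.00146) and KDM4D (-0.56, 0.0262). The median change of the 17 was 0.01 on the log2 scale, and 9 were above 0. With siARNT in normoxia 3 were lower, where 10.8% of all genes were: KDM7A (-0.64, 0.00407), JMJD1C, a relative of KDM3A (-0.33, 0.0372), and JARID2, which has a JmjC domain without demethylase activity (-0.29, 0.0395). In hypoxia the same 3 genes were lower with siARNT and RIOX2 was higher (0.25, 0.0221), which is 4 of 17, where 29.1% of all genes passed. These shares are near those of all genes. None of the 17 passed in the interaction. Some of the 17, among them KDM4D and KDM7A, are themselves histone demethylases, so the 10 genes are only a part of that family. The difference between the 17 genes and the 10 was not tested.

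Genes were ranked by how closely their log2 CPM followed KDM3A over the 12 libraries, among 9855 that averaged 5 CPM or more. The members and the other JmjC genes were left out of the ranking, although those at that level are counted in the 9855. The closest were P4HA1, a collagen prolyl hydroxylase subunit and likewise a 2-oxoglutarate and oxygen-dependent enzyme (Pearson r = 0.9944), CNKSR3 (0.9898), YPEL2 (0.9873), PNMA2 (0.9873) and SCIN (0.9862). They were chosen by this likeness, so their values are a description, and the 12 points share their groups and depth. P4HA1 averaged 125 CPM in normoxia and 592 CPM in hypoxia with siControl, and 94.5 and 181 CPM with siARNT. SCIN, which codes for an actin-severing protein, averaged 9.15 and 32.8 CPM with siControl, and 8.39 and 13.1 CPM with siARNT. All 5 were highest in hypoxia siControl and second highest in hypoxia siARNT, as KDM3A was.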

How the data were processed

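Poly(A) RNA from 12 AsPC-1 libraries was sequenced with a stranded kit, per the labels. The submitters' processing notes name Trimmomatic, STAR 2.4.2a and GRCh38.p10. The deposited gene files hold raw read counts; 74.8% to 77.29% of reads were assigned to a gene, and summary lines that name no gene were left out. The deposited splicing tables hold, per the file headers, junction read counts, the mean coverage of retained introns and the authors' inclusion fraction; the event caller, annotation and coordinate build are not given in the sources used here, so no event position is printed.

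Counts were tested with edgeR 4.0.16 (TMM, filterByExpr, quasi-likelihood, robust) over all 12 libraries with 1 mean per group, and p-values were adjusted by Benjamini-Hochberg over 16999 genes, with a call at adjusted p under 0.05. Fold changes are the model's, and CPM are counts per 1000000 gene counts after TMM scaling (for the cell type markers without it). Events with at least 10 reads in each library and a mean inclusion from 0.02 to 0.98 were tested with limma 3.58.1 on log2((inclusion + 0.5)/(exclusion + 0.5)), over 30653 events. Inclusion percentages were computed from the deposited counts. Both tests were checked on simulated data. Of the 57820 identifiers, 51996 matched a symbol, with 99.35% of counts. Alternatives were DESeq2 1.42.0, other scalings, no filter, fewer libraries, blocks, and an offset for transcript GC content (spline with 4 degrees of freedom per library). All 10 genes are named in every comparison. Genes of other lists are named only where called, in the comparisons the text describes for that list. At most 4 are named per list and comparison, by size. KDM5C is named as an exception, beside KDM5A and KDM5B. The members and lists were chosen with earlier results of these data known. RefSeq start windows (GRCh38.p14) were matched by symbol for all 10 genes, with 16 windows.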

Additional observations from a re-analysis of the deposited data

Results flagged for a closer look

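The hypoxia response of KDM3A differed between the siRNA arms. The test of the difference itself, the edgeR interaction term, gave -0.75 on the log2 scale (siARNT minus siControl, SE 0.116, adjusted p = 0.00436), from a rise of 1.49 in siControl cells and 0.74 in siARNT cells. All 3 hypoxia libraries lay above all 3 normoxia libraries in both arms. Over 20 other fits the difference ran from -0.88 to -0.69, with adjusted p-values from 9.14e-08 to 0.0222.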

How the results depend on the processing

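Of 50 gene results (10 genes in 5 comparisons), 20 passed, and 10 of these kept their direction and passed in all alternatives run. The number of the 10 genes that passed moved by over 1.5 times in these fits: hypoxia in siARNT gave 0 with only the 6 samples compared and 1 with the transfected well as a block, against 2; siARNT in normoxia gave 4 with the GC offset, with or without the replicate block, against 2; siARNT in hypoxia gave 5 with no filter on low counts and 5 with only the 6 samples compared, against 8; and the interaction gave 2 with no filter, 2 with DESeq2 and 4 with the GC offset, with or without the replicate block, against 1. Leaving out single libraries gave 5 to 8 for hypoxia in siControl, 1 to 2 for hypoxia in siARNT, 1 to 3 for siARNT in normoxia, 4 to 8 for siARNT in hypoxia and 1 to 2 for the interaction, and 0 to 1 splicing events for hypoxia in siControl, siARNT in normoxia and the interaction. Calls over all genes moved as well. For hypoxia in siARNT they went from 696 of 16999 to 22 of 16335 with only the 6 samples compared. With the well as a block they were 136 of 16999. The GC offset raised them to 3758 there, from 3431 to 5440 for siARNT in normoxia and from 797 to 2990 in the interaction. For siARNT in hypoxia they went from 4948 to 4323 of 34964 with no filter. With only the 6 samples compared they were 4235 of 16198. In the interaction they were 579 with no filter and 1026 of 13950 with DESeq2. The cause was not tested.

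Outside the fits that left out a library, calls were also lost for KDM2B in hypoxia siControl against normoxia siControl with no filter (adjusted p = 0.0796), KDM2A there (0.0578) and KDM5B for hypoxia in siARNT (0.0626) with the well as a block, KDM4B for siARNT in hypoxia with total count scaling (0.063) and only the 6 samples compared (0.0741), KDM2A for siARNT in hypoxia with total count scaling (-0.11, 0.263), no filter (0.116) and only the 6 samples compared (0.116), and KDM2B for siARNT in hypoxia with no filter (0.219), only the 6 samples compared (0.0721) and the GC offset (0.0721, and 0.0559 with the block added). Signs turned only in results that did not pass. For hypoxia in siARNT these were KDM4A (-0.002 with no filter, -0.013 with the GC offset with or without the block) and KDM6B (0.099 with the GC offset, 0.101 with the block added). For siARNT in normoxia, KDM2A was -0.008 with the GC offset, with or without the block, and KDM4B was -0.007 and -0.005 with the block added. For siARNT in hypoxia, KDM3B was 0.033 with total count scaling, and KDM4A was 0.074 with total count scaling, 0.018 with only the 6 samples compared, 0.015 with the GC offset and 0.016 with the block added. In the interaction, KDM4A was 0.011 and KDM5A 0.042 with total count scaling. Leaving out single libraries gave ranges through 0 for hypoxia in siARNT (KDM2A -0.024 to 0.089, KDM4A -0.03 to 0.064, KDM6B -0.275 to 0.143), siARNT in normoxia (KDM2A -0.058 to 0.055, KDM4A -0.029 to 0.069), siARNT in hypoxia (KDM4A -0.045 to 0.004) and the interaction (KDM4A -0.078 to 0.026, KDM5A -0.072 to 0.056); the cause was not tested. Total count scaling also shifted the split of calls over all genes, from 2452 up and 2496 down to 3473 and 1973 for siARNT in hypoxia, from 375 and 321 to 634 and 330 for hypoxia in siARNT, and from 424 and 373 to 1125 and 370 in the interaction.

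The letters A, B and C are not stated to pair libraries, and same-letter deviations correlated by 0.07 to 0.3 between the siControl groups, -0.43 to 0.52 between the siARNT groups, 0.08 to 0.41 between the normoxia groups and -0.33 to 0.18 between the hypoxia groups. In none of these 4 compared pairs of groups were all 3 letters over 0.1, so the letters were not treated as pairs, although all 3 were (0.18 to 0.53) between normoxia siARNT and hypoxia siControl, which no comparison sets against each other; the range between normoxia siControl and hypoxia siARNT was -0.17 to 0.26. The replicate block gave 8, 2, 3, 8 and 1 passing genes in the 5 comparisons against 7, 2, 2, 8 and 1. The 2 genes it added were KDM6B for hypoxia in siControl (0.54, adjusted p = 0.0415) and KDM3A for siARNT in normoxia (-0.23, 0.0313), and it changed no other call. KDM4B and KDM6B, at 3.49 to 14.2 and 3.91 to 10.4 CPM, had the largest SEs of the 10 genes.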

Other observations

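KDM1A, which codes for LSD1, a histone demethylase that uses flavin in place of iron and 2-oxoglutarate, moved with a pattern like that of KDM3A. With siControl it averaged 211 ± 6.59 CPM (SD, n = 3) in normoxia and 553 ± 71.2 CPM in hypoxia, and with siARNT 166 ± 7.38 and 213 ± 25.0 CPM. Hypoxia raised it 2.62-fold in siControl cells (edgeR adjusted p = 3.52e-06), the difference in siARNT cells was 0.36 (0.0639), and the 2 responses differed by -1.03 (0.00185). Of the 8 amine oxidase demethylase and CoREST genes, 2 rose with hypoxia in siControl cells (KDM1A and RCOR2) and 1 fell (KDM1B, log2 -0.28).

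Of the genes for writers of the marks, 4 passed with hypoxia in siControl cells in the H3K27 list. In each of the H3K9, H3K4 and H3K36 lists 1 gene passed. The H3K27 list alone also holds complex subunits that are not methyltransferases, and EZH2 was the only methyltransferase among its 4. Of 7 H3K27 methyltransferase and PRC2 genes 4 fell and none rose: EZH2, the catalytic subunit (log2 -0.42, adjusted p = 0.00111), RBBP7 (-0.36, 0.00758), EED (-0.32, 0.0149) and RBBP4 (-0.31, 0.0294). SUV39H2 was the 1 of 6 H3K9 methyltransferase genes that passed (-0.62, 0.00123), and KMT2A the 1 of 6 H3K4 methyltransferase genes (0.25, 0.0232). NSD2 was the 1 of 5 H3K36 methyltransferase genes (-0.27, 0.00425). TET2, a DNA dioxygenase that also needs oxygen and 2-oxoglutarate, rose (0.46, 0.00263) as 1 of 3 TET genes. Of 9 genes for the complex that holds KDM2B, BCORL1 rose (0.90, 0.00274) and none fell. Among 15 genes for enzymes of 2-oxoglutarate and 2-hydroxyglutarate, 1 rose, LDHA (1.39, 2.86e-07), and 6 fell, among them IDH3A (-0.69, 3.59e-05) and FH (-0.66, 0.000224). In the same comparison 25.3% of all genes passed, 10.4% up and 14.9% down. The lists hold few genes, and no list was tested against the rest.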
